A study of Mus musculus with 12 samples.

Results

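C-type lectin receptors were followed in 12 RNA-seq libraries of mouse CD11b dendritic cells (DCs). The receptors are the 10 rows of the deposited count table that carry the symbols Cd209a, Cd207, Mgl2, Clec10a, Mrc1, Clec7a, Clec4n, Clec4d, Clec4e and Clec9a, out of 24391 gene symbols in all. All 10 passed the low-count filter that left 13221 genes for testing. The members were taken by symbol.

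The mice were wild-type C57BL/6J animals of 8 to 12 weeks that had taken a replication-deficient adenovirus into the airways. One vector carried a pig TGF-β1 gene coding for the active protein (AdTGFb1), and the other was empty (AdCL). Each vector has 3 libraries in experiment 1 and 3 in experiment 3, and the number after DC in a title names the library. In experiment 1 the empty vector has DC 7, 8 and 9, and TGF-β1 has DC 14, 52 and 54. In experiment 3 the empty vector has DC 943, 944 and 949, and TGF-β1 has DC 954, 955 and 956. Values below keep this order of libraries. The series title speaks of established pulmonary fibrosis. No label used here states the time after the vector, the sort gate, or whether a library is 1 animal or a pool, so p-values measure only the spread between these libraries.

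C-type lectin receptors are membrane proteins of myeloid cells that recognise sugars and other ligands on microbes, on dying cells and on the body's own glycoproteins. Some act mainly in uptake, such as the DC-SIGN relative Cd209a, langerin (Cd207), the galactose-binding lectins Mgl2 and Clec10a, and the mannose receptor Mrc1. Others signal through the kinase Syk and the adaptor Card9: Dectin-1 (Clec7a) through a tyrosine motif of its own, and Dectin-2 (Clec4n), MCL (Clec4d) and Mincle (Clec4e) together with the chain Fcer1g. Clec9a, also called DNGR-1, binds actin exposed by dead cells and is a marker of the cross-presenting CD103 DC. Mgl2 marks part of the CD11b DCs, and langerin is best known from Langerhans cells, which need TGF-β1 to form.

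The libraries held between 10099912 and 15594546 counts. Ddx3y, a gene of the Y chromosome, lay at 120.5 CPM or above in 4 libraries (AdCL DC 7, 8 and 9 and AdTGFb1 DC 14) and at 0 in the other 8, while Xist lay at 2.29 CPM or below in those 4 and at 1126 CPM or above in the other 8. CPM are counts scaled by each library's TMM-adjusted total. In experiment 1, sex therefore went with the vector in all libraries but AdTGFb1 DC 14. In a model with a term for sex, the effect in experiment 1 sets AdTGFb1 DC 14 alone against the AdCL libraries. The difference between the experiments in such a model rests on the same library. Of 19 markers of CD11b DCs, 12 were lower and 1 was higher with AdTGFb1 over both experiments. Of 22 monocyte and macrophage markers, 18 were higher and 0 lower. Of all genes tested, 10.4% were lower and 6.78% higher.

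The promoters of 4 receptors are shown because the 2 transcripts that fell in both experiments come from Cd209a and Cd207, and because Clec4d and Clec4e are direct neighbours whose levels moved together. Each runs from 250 bases before to 50 bases after the annotated start, 5′ to 3′ on the gene's strand, from RefSeq on build GRCm38.p6. Of the 10 members, 8 had such an entry. Capitals mark matches on either strand to the motif letters named after the sequences. The counts were made on build mm9, so these coordinates describe the sequences only.
Cd209a, chr8:3748935-3749234, minus strand: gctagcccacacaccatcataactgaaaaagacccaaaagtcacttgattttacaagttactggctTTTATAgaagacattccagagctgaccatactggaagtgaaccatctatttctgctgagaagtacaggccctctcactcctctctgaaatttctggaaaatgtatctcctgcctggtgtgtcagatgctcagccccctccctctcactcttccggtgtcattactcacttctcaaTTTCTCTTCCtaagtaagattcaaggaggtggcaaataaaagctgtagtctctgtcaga
Cd207, chr6:83677808-83678107, minus strand: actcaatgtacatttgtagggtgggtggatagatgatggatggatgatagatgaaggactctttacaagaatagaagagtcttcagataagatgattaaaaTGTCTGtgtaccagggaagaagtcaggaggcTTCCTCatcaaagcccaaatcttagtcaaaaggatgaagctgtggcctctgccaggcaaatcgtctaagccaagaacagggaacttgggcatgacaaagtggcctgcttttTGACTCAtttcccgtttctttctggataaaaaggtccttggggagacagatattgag
Clec4d, chr6:123261857-123262156, plus strand: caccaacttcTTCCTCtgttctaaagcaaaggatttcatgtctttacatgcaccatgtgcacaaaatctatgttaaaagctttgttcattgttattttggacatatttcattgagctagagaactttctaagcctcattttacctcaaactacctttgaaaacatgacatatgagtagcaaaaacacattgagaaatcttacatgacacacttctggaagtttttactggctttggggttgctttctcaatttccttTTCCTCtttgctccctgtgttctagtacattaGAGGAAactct
Clec4e, chr6:123289822-123290121, minus strand: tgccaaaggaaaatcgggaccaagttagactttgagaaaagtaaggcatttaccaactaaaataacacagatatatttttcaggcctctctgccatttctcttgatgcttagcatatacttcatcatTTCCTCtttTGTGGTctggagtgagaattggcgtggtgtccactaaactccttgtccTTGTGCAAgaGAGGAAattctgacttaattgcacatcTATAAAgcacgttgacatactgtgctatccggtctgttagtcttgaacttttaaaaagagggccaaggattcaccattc

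The letters searched, on both strands and with matches allowed to overlap, were TGACTCA for AP-1, GAGGAA for the core of PU.1 sites, and TGTGGT for RUNX. CAGACA stood for SMAD, TATAAA for the TATA box and TTGCNNAA for C/EBP. The composite of ETS and IRF factors was GGAA followed, after any 2 bases, by the letters GAAA. The NF-κB site was GGG followed, after any 2 bases, by the letters TTTCC. The Cd209a promoter held the composite on the reverse strand across the start, letters found in 2.72% of 32841 promoters, and TATAAA far upstream, found in 13.6%. The Cd207 promoter held TGACTCA just before the start (5.2% of promoters), GAGGAA (28.3%) and CAGACA (21.0%). The Clec4d promoter held GAGGAA at 3 places. The Clec4e promoter held it at 2 places, with TGTGGT (16.8%), TTGCNNAA (10.8%) and TATAAA besides. The NF-κB letters (1.63%) were in none of the 4 windows. A match only describes the letters of these windows, and no binding was measured.

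To order the receptors by abundance, levels were divided by the length of the longest annotated transcript (CPM per kilobase). In the 6 AdCL libraries Clec7a was the most abundant at 553 ± 107 CPM per kilobase (SD, n = 6), followed by Mgl2 at 477 ± 143. Cd207 lay at 161 ± 56.8, Cd209a at 149 ± 66.7, Mrc1 at 96.1 ± 24.0 and Clec4n at 56.7 ± 17.1 CPM per kilobase. The lower members were Clec4d at 42.7 ± 6.74, Clec4e at 17.4 ± 4.28, Clec10a at 12.3 ± 4.84 and Clec9a at 2.25 ± 1.70 CPM per kilobase. Neighbours in this order were not always apart. Clec7a exceeded Mgl2 in 4 of 6 AdCL libraries, Cd207 exceeded Cd209a in 3, Clec4n exceeded Clec4d in 4 and Clec4e exceeded Clec10a in 4, while the remaining neighbours kept their order in 6 of 6. In the 6 AdTGFb1 libraries Cd209a had rank 5 at 38.8 ± 21.9 and Cd207 rank 7 at 23.2 ± 24.1 CPM per kilobase, below Mrc1 at 126.6 ± 24.3 and Clec4n at 99.0 ± 45.5. With the median transcript length, 6 of the 10 members kept their rank in AdCL.

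The comparison of AdTGFb1 with AdCL asks how the lectin receptors of CD11b DCs differed in mice given TGF-β1. Over both experiments, Cd209a and Cd207 fell and Clec9a rose, 3 of 10 members, against 17.2% of all genes tested (6.78% higher and 10.4% lower). The median log2 fold change of the 10 was -0.39, and that of all genes tested was -0.00196. In experiment 1 alone, 2 members rose (Mrc1 and Clec4n) and 2 fell (Cd209a and Cd207), against 24.7% of all genes (10.6% higher and 14.1% lower). In experiment 3 alone, 3 members fell (Cd209a, Cd207 and Mgl2) and 0 rose, against 6.43% of all genes (1.97% higher and 4.46% lower). The tests are edgeR's quasi-likelihood F test with Benjamini-Hochberg adjustment over all genes tested, and a gene is called at an adjusted p under 0.05. In such bulk libraries, fewer cells that carry a transcript and less of it per cell cannot be told apart.

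**Figure D1:**
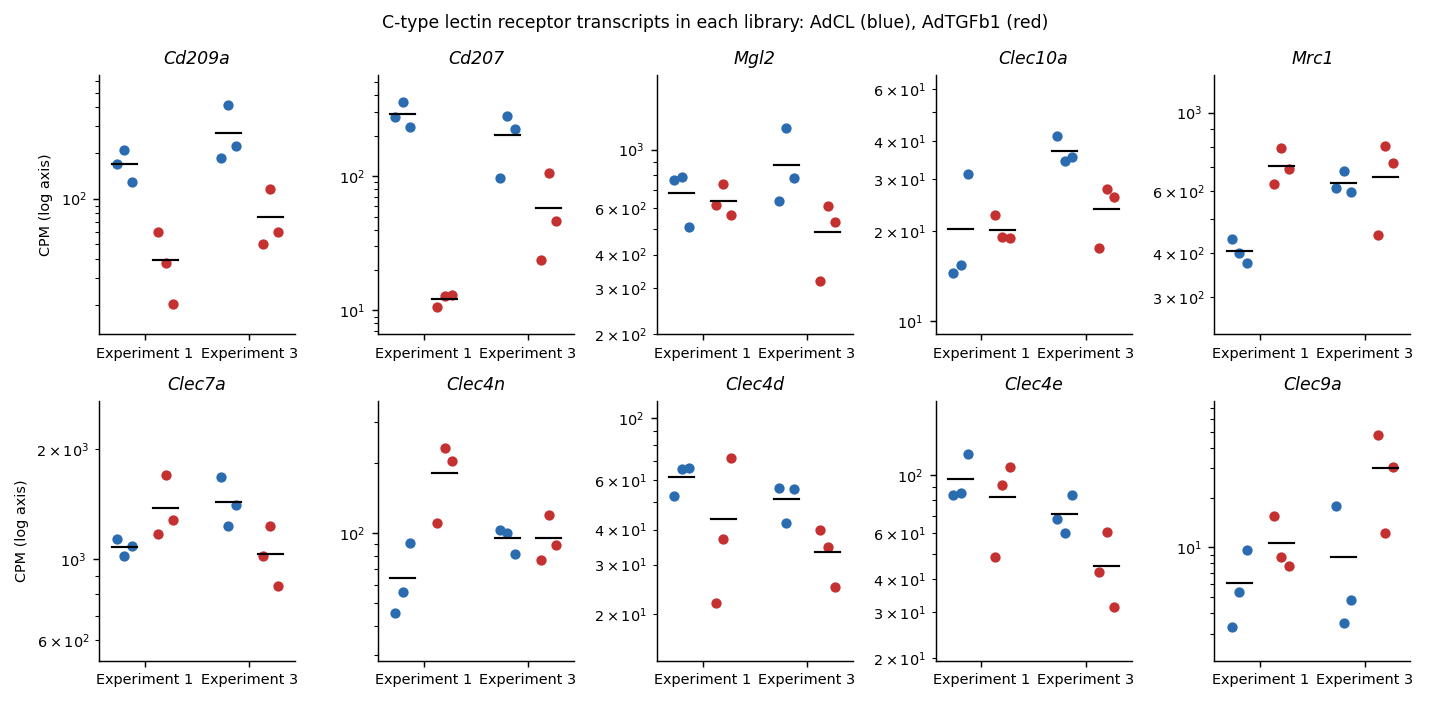
Level of each of the 10 receptors in CPM on a log axis, 1 point a library, blue for the empty vector and red for TGF-β1, split by experiment, with a black line at the mean of 3 libraries. All 6 AdTGFb1 points of Cd209a lie below every AdCL point, and the AdTGFb1 points of Cd207 in experiment 1 lie between 10.6 and 13.1 CPM.

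Cd209a, a mannose- and fucose-type lectin of DCs that takes up antigen, stood at 169, 209 and 129 CPM in the AdCL libraries of experiment 1 and at 60.3, 37.8 and 20.4 CPM in the AdTGFb1 libraries. In experiment 3 it stood at 184, 411 and 222 CPM with AdCL and at 50.4, 116 and 60.3 CPM with AdTGFb1. The groups did not overlap in either experiment (21.6% of all genes were below in this way in experiment 1 and 12.9% in experiment 3). Each of the 6 AdTGFb1 libraries lay below every AdCL library, which held for 4.46% of all genes tested, while 1.86% lay above in all 6. The mean fell from 221 ± 98.9 to 57.5 ± 32.4 CPM (SD, n = 6 each), which is -1.97 ± 0.26 on the log2 scale (SE; edgeR adjusted p = 4.42e-05). The effect was -2.10 ± 0.34 in experiment 1 and -1.85 ± 0.34 in experiment 3, and the difference between them did not pass (0.25 ± 0.46, adjusted p = 0.828). No 50-base stretch of its annotated transcripts occurs in another gene's transcripts.

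Cd207 encodes langerin, which forms Birbeck granules in Langerhans cells. It stood at 275, 356 and 233 CPM in the AdCL libraries of experiment 1 and at 10.6, 12.9 and 13.1 CPM in the AdTGFb1 libraries. In experiment 3 the AdCL libraries held 96.2, 282 and 225 CPM and the AdTGFb1 libraries 23.8, 105 and 46.02 CPM. The groups were far apart in experiment 1, where 21.6% of all genes were below without overlap. They overlapped in experiment 3, where AdTGFb1 DC 955 lay above AdCL DC 943. Over both experiments Cd207 changed by -3.14 ± 0.48 in log2 (adjusted p = 0.000165, edgeR), with 5 of 6 AdTGFb1 libraries below every AdCL library. The fall was -4.56 ± 0.42 in experiment 1 (adjusted p = 1.1e-07) and -1.79 ± 0.37 in experiment 3 (adjusted p = 0.00353). The difference between the experiments, experiment 3 minus experiment 1, was itself called at 2.77 ± 0.52 (adjusted p = 0.00255). It passed with a term for sex as well (adjusted p = 0.0424).

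The calls of Cd209a and Cd207 held in all 18 alternatives run over both experiments and in all 17 within each experiment. Beside these falls stand sums over marker lists. In experiment 1 the summed CPM of 19 CD11b DC markers ran from 41298 to 46577.5 with AdCL and from 25584 to 32136 with AdTGFb1. In experiment 3 the groups overlapped (39761 to 52977 and 33524 to 42270). The largest parts of this sum were the MHC class II genes Cd74, H2-Ab1, H2-Eb1 and H2-Aa. Their means over the 12 libraries were 16924, 6952, 6666 and 4802 CPM, so the sum mainly follows these genes. The summed CPM of 21 markers of mature DCs ran from 7168 to 10779 with AdCL and from 3322 to 5424 with AdTGFb1 (6 libraries each). Over both experiments 14 of these markers were lower and 0 higher, against 10.4% and 6.78% of all genes. The summed CPM of the 22 monocyte and macrophage markers ran from 6938 to 8276 and from 17102 to 20581 in experiment 1, and from 11645 to 15176 and from 23056 to 26824 in experiment 3. Their part in the falls was not tested. The endothelial markers, whose summed CPM ran from 420 to 1054 in the AdCL libraries of experiment 1 and from 192 to 365 in the others, were used as a covariate together with epithelial and fibroblast markers. With that term Cd209a and Cd207 kept their calls. The endothelial sum was highest in AdCL of experiment 1, so the term went partly with the vector. The part of endothelial, epithelial and fibroblast cells in the falls was not tested.

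**Figure D2:**
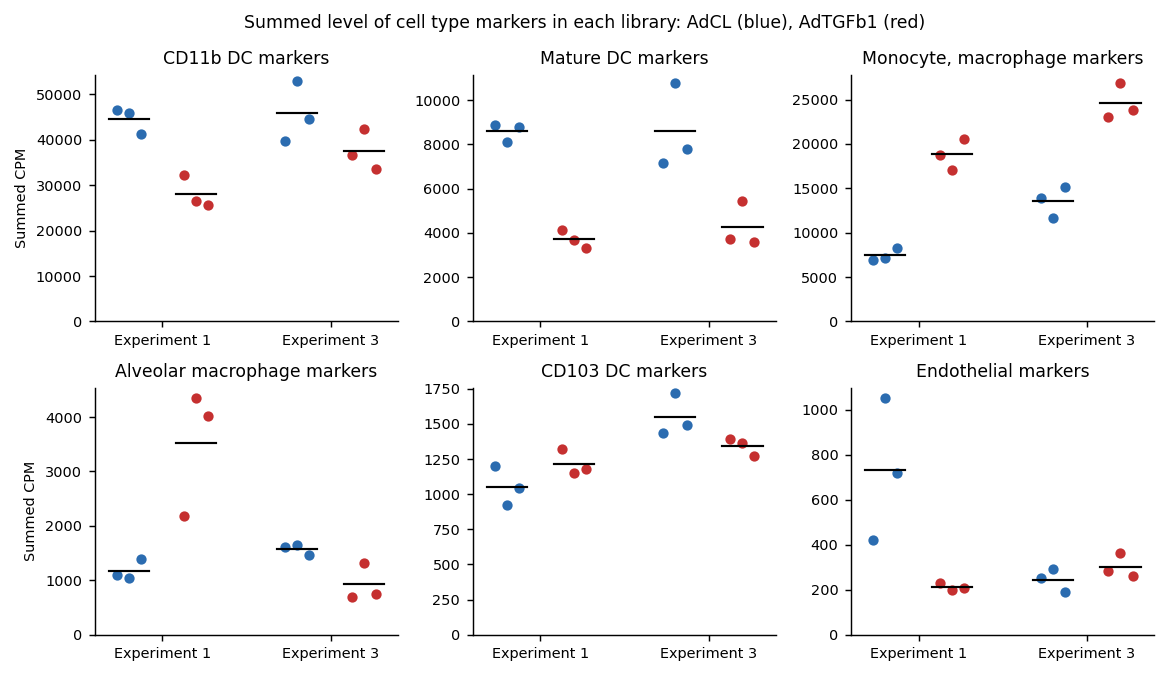
Summed CPM of 6 lists of cell type markers, 1 point a library, blue for the empty vector and red for TGF-β1, split by experiment, with a line at the mean of 3. Monocyte and macrophage markers were higher with AdTGFb1 in both experiments, while alveolar macrophage markers ran from 2173 to 4353 CPM with AdTGFb1 in experiment 1 and from 701 to 1326 CPM in experiment 3. Il1rn, with a mean of 733 CPM over the 12 libraries, is a large part of the alveolar macrophage sum.

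The galactose-type lectins Mgl2 and Clec10a sit next to each other on chromosome 11 and are close copies. Of the 50-base stretches of their annotated transcripts, 13.1% of those of Mgl2 and 9.02% of those of Clec10a occur in another gene, mostly in each other, so a part of their reads may be shared. Mgl2 stood at 763, 788 and 509 CPM with AdCL and at 619, 740 and 564 CPM with AdTGFb1 in experiment 1, and these groups overlapped. Its levels in experiment 3 were 637, 1201 and 778 CPM with AdCL and at 319, 610 and 533 CPM with AdTGFb1, without overlap (12.9% of all genes were below in this way). Mgl2 fell in experiment 3 by 0.84 ± 0.22 in log2 (adjusted p = 0.0241, edgeR) and did not pass in experiment 1 (-0.10 ± 0.22, adjusted p = 0.793) or over both (-0.47 ± 0.19, adjusted p = 0.107), although it passed over both with no low-count filter (0.0214). The call in experiment 3 was lost without AdCL DC 944 (adjusted p = 0.209), AdTGFb1 DC 954 (0.133) or AdTGFb1 DC 956 (0.0512), with DESeq2 (0.0797), and with experiment 3 fitted alone (0.0531). The difference between the experiments was not called (-0.74 ± 0.31, adjusted p = 0.177).

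Clec10a was much rarer than its neighbour per length in both vectors. It stood at 14.5, 15.4 and 31.1 CPM with AdCL and at 22.7, 19.1 and 19.0 CPM with AdTGFb1 in experiment 1, so that AdCL DC 9 alone lay above the AdTGFb1 libraries. In experiment 3 it stood at 41.8, 34.4 and 35.6 CPM with AdCL and at 17.7, 27.8 and 26.1 CPM with AdTGFb1. These groups did not overlap, and 12.9% of all genes were below in this way. No comparison of the vectors passed for Clec10a (-0.33 ± 0.23 over both, adjusted p = 0.376, and -0.64 ± 0.30 in experiment 3, adjusted p = 0.253).

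Mrc1, the macrophage mannose receptor CD206, clears glycoproteins and is carried by many tissue macrophages. It stood at 436, 399 and 375 CPM with AdCL and at 628, 793 and 692 CPM with AdTGFb1 in experiment 1, without overlap, where 18.8% of all genes were above in this way. Its levels in experiment 3 were 612, 682 and 594 CPM with AdCL and at 449, 801 and 720 CPM with AdTGFb1, which overlapped. Mrc1 rose in experiment 1 by 0.80 ± 0.17 (adjusted p = 0.00102, edgeR; 0.0783 with a term for sex), was not called in experiment 3 (0.06 ± 0.17, adjusted p = 0.906), and over both experiments just missed the threshold (0.43 ± 0.15, adjusted p = 0.0609). Over both it passed without AdCL DC 944 (adjusted p = 0.0349) or AdTGFb1 DC 954 (0.00404), with DESeq2 (0.0273) and with no low-count filter (0.0174). The difference between the experiments was -0.74 ± 0.23 (adjusted p = 0.0597), which passed without AdTGFb1 DC 14 (0.0443) or AdTGFb1 DC 955 (0.0178), with DESeq2 (0.0364) and with no low-count filter (0.00997). Mrc1 was the only member whose control level was called as different between the experiments, higher in AdCL of experiment 3 by 0.64 ± 0.17 (adjusted p = 0.017, against 9.02% of all genes, 4.13% higher and 4.89% lower). That comparison shares its AdCL libraries with the vector effects. It missed the threshold without AdCL DC 9 (0.0555). By Xist and Ddx3y, the AdCL libraries were all male in experiment 1 and all female in experiment 3. Sex and experiment therefore cannot be told apart in this comparison of the AdCL libraries.

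Clec7a, the β-glucan receptor Dectin-1, stood at 1137, 1017 and 1087 CPM with AdCL and at 1171, 1694 and 1283 CPM with AdTGFb1 in experiment 1. It was higher there in all AdTGFb1 libraries, as held for 18.8% of all genes. In experiment 3 it stood at 1675, 1229 and 1405 CPM with AdCL and at 1022, 1234 and 843 CPM with AdTGFb1, where AdTGFb1 DC 955 lay just above AdCL DC 944. Neither effect passed (0.36 ± 0.16, adjusted p = 0.104, and -0.48 ± 0.16, adjusted p = 0.0769, edgeR). The difference between the experiments, which passed in 3 of 10 members (1 higher in Cd207, 2 lower in Clec7a and Clec4n) and 6.02% of all genes (3.43% higher and 2.59% lower), was called at -0.83 ± 0.22 (adjusted p = 0.0267). This call was lost without AdCL DC 8 (0.0529), AdTGFb1 DC 52 (0.0911), AdCL DC 943 (0.0658) or AdTGFb1 DC 956 (0.0765), and with a term for sex (0.31). Over both experiments Clec7a was not called (-0.06 ± 0.16, adjusted p = 0.841). The effect in experiment 1 passed when those libraries were fitted alone (0.0416), and the effect in experiment 3 passed with DESeq2 (0.0389), with no low-count filter (0.023), and without AdCL DC 944 (0.0497) or AdTGFb1 DC 955 (0.0227).

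Clec4n, Clec4d and Clec4e lie side by side on chromosome 6 with no other coding gene between them. In experiment 1 Clec4n was called as higher with AdTGFb1 and the other two were not called. Clec4n encodes Dectin-2, a receptor for fungal mannans. It stood at 45.3, 56.0 and 90.8 CPM with AdCL and at 111, 232 and 204 CPM with AdTGFb1 in experiment 1. It was above without overlap there, as were 18.8% of all genes. Its levels in experiment 3 were 104, 100.4 and 81.8 CPM with AdCL and at 76.6, 120 and 89.5 CPM with AdTGFb1, with the AdCL values inside the range of the others. Clec4n rose in experiment 1 by 1.51 ± 0.26 (adjusted p = 0.000137, edgeR) and was not called in experiment 3 (0.00 ± 0.25, adjusted p = 0.998). The difference between the experiments was -1.51 ± 0.36 (adjusted p = 0.0123). With a term for sex, which in this design rests on AdTGFb1 DC 14 alone, the effect in experiment 1 was 0.80 (adjusted p = 0.0954) and the difference -0.79 (adjusted p = 0.344), and both calls were lost. Over both experiments Clec4n just missed the threshold (0.76 ± 0.27, adjusted p = 0.0575), and passed when any of AdCL DC 943, AdCL DC 944, AdTGFb1 DC 954 or AdTGFb1 DC 956 was left out (adjusted p from 0.023 to 0.0428) or no low-count filter was used (0.00175).

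Clec4d, the receptor MCL, stood at 52.8, 65.9 and 66.0 CPM with AdCL and at 21.8, 36.9 and 71.9 CPM with AdTGFb1 in experiment 1, where AdTGFb1 DC 54 lay above all AdCL libraries. In experiment 3 it stood at 56.4, 42.2 and 55.7 CPM with AdCL and at 39.8, 34.7 and 25.1 CPM with AdTGFb1. It was below without overlap there, as were 12.9% of all genes. The effect over both was -0.57 ± 0.22 (adjusted p = 0.0897, edgeR), with 5 of 6 AdTGFb1 libraries below every AdCL library. It passed without AdTGFb1 DC 54 (-0.82, adjusted p = 0.00834) and with sex in the model (-0.90, adjusted p = 0.0159) or no low-count filter (0.0353). In experiment 1 alone it was -0.50 ± 0.30 (adjusted p = 0.239), and it passed there without AdTGFb1 DC 54 (-1.06, adjusted p = 0.00954) and with a term for sex (-1.50, adjusted p = 0.0162). Clec4e, the receptor Mincle for mycobacterial cord factor, stood at 84.2, 85.0 and 120 CPM with AdCL and at 48.6, 91.2 and 107 CPM with AdTGFb1 in experiment 1. It stood at 68.0, 60.1 and 84.1 CPM with AdCL and at 42.6, 60.5 and 31.3 CPM with AdTGFb1 in experiment 3. The groups overlapped in both experiments, and no effect of the vector was called (-0.44 ± 0.20 over both, adjusted p = 0.143). With a term for sex it passed over both (-0.77, adjusted p = 0.0129), and in experiment 3 it passed without AdTGFb1 DC 955 (0.0406) and with no low-count filter (0.0188).

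Beside the rises of Clec4n and Mrc1 in experiment 1, alveolar macrophage markers differed in the same libraries. Of 16 such markers, 5 were higher and 0 lower with AdTGFb1 in experiment 1, against 10.6% and 14.1% of all genes. In experiment 3, 0 were higher and 2 lower, against 1.97% and 4.46% of all genes. Their summed CPM ran from 1043 to 1387 with AdCL and from 2173 to 4353 with AdTGFb1 in experiment 1, and from 1459 to 1645 and from 701 to 1326 in experiment 3. A large part of these sums was Il1rn, at 877 ± 231 CPM with AdCL and 589 ± 212 CPM with AdTGFb1 over both experiments. Il1rn is also in the list of genes that receptor ligands are known to induce. Chil3, a chitinase-like protein of these macrophages, ran from 13.5 to 104 CPM with AdCL and from 977 to 2039.6 CPM with AdTGFb1 in experiment 1, and from 102 to 488 and from 42.3 to 56.1 CPM in experiment 3. The defining markers Siglecf and Marco lay between 5.86 and 16.4 CPM and between 1.68 and 22.5 CPM over the 12 libraries, and neither was called in any of these comparisons. The part of these transcripts in the rises was not tested.

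**Figure D3:**
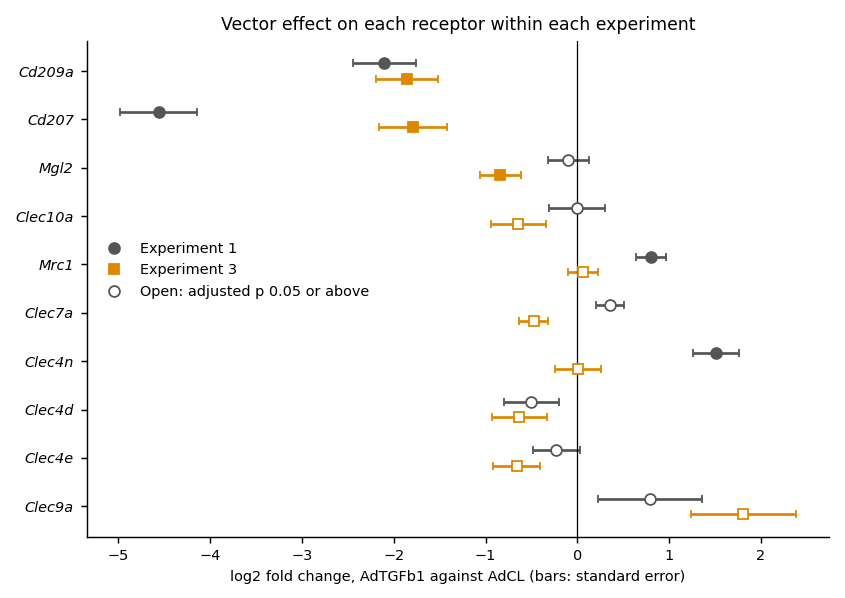
Log2 fold change of AdTGFb1 against AdCL for each receptor within experiment 1 (grey circles) and experiment 3 (orange squares), with bars for the standard error and filled symbols where the adjusted p was under 0.05. Cd209a lies near -2 in both experiments, Cd207 at -4.56 and -1.79, and Clec4n at 1.51 and 0.00.

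Clec9a was the rarest member, with between 32 and 688 reads a library. It stood at 3.31, 5.37 and 9.67 CPM with AdCL and at 15.5, 8.74 and 7.77 CPM with AdTGFb1 in experiment 1. Its levels in experiment 3 were 17.8, 3.501 and 4.83 CPM with AdCL and at 48.0, 12.3 and 30.7 CPM with AdTGFb1. The groups overlapped in both experiments, and AdCL DC 943 stood well above the other AdCL libraries. Over both experiments Clec9a rose by 1.31 ± 0.44 on the log2 scale (adjusted p = 0.0476, edgeR), with 2 of 6 AdTGFb1 libraries above every AdCL library. It passed in neither experiment alone (0.80 ± 0.57, adjusted p = 0.331, and 1.81 ± 0.57, adjusted p = 0.0604). In experiment 3 it passed with DESeq2 (0.0274), with no low-count filter (0.00134), and without AdCL DC 943 (2.86, adjusted p = 0.00369), AdTGFb1 DC 955 (0.0186), AdCL DC 7 (0.0449) or AdCL DC 9 (0.0458). The call over both was lost without AdCL DC 7, AdCL DC 8, AdTGFb1 DC 14, AdCL DC 944, AdCL DC 949, AdTGFb1 DC 954 or AdTGFb1 DC 956 (adjusted p from 0.0585 to 0.128), with no term for the experiment (0.0576) and with the term for endothelial, epithelial and fibroblast markers (0.0802). Exons of Clec1b overlap Clec9a on the same strand, and 4.02% of its 50-base stretches occur there.

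Of 12 other markers of the CD103 DC, 4 were higher (Irf8, Tlr3, Naaa and Ppt1) and 1 lower (Wdfy4) with AdTGFb1 over both experiments, against 6.78% and 10.4% of all genes. Xcr1, the chemokine receptor that defines this lineage, lay between 0.286 and 13.1 CPM and did not pass (-0.75 ± 0.77, adjusted p = 0.571). Across the 12 libraries, which share batch and vector, the Pearson correlation of log2 CPM with Clec9a was 0.78 for Irf8, 0.72 for Ppt1, 0.63 for Snx22 and 0.50 for Tlr3. It was 0.22 for Naaa, 0.17 for Cadm1, -0.04 for Batf3, -0.04 for Gcsam and -0.11 for Cxx1b. It was -0.26 for Xcr1, -0.43 for Itgae and -0.47 for Wdfy4, so the markers lay on both sides of 0. The part of these cells in the rise of Clec9a was not tested. The summed CPM of the list ran from 924 to 1198 with AdCL and from 1149 to 1321 with AdTGFb1 in experiment 1. In experiment 3 it ran from 1433 to 1717 and from 1271 to 1394. Wdfy4, the 1 marker called lower, was the largest part of this sum, with a mean of 662 CPM over the 12 libraries.

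Within groups, receptors also varied from library to library. Levels were taken as log2 CPM minus the mean of the library's group of 3, and the correlations over the 12 libraries are given as a description of 45 pairs that share batch and depth. The neighbours Clec4d and Clec4e varied together within groups (r = 0.79), and Clec4n varied with Clec4e (r = 0.72) and less closely with Clec4d (r = 0.48). The same was seen for Cd207 with Mgl2 (r = 0.83) and Mgl2 with Mrc1 (r = 0.80). Cd209a went with Mgl2 (r = 0.73) and less closely with Cd207 (r = 0.62). Clec9a ran against Cd207 (r = -0.88) and against Mgl2 (r = -0.79). Chosen after the values were seen, AdTGFb1 DC 955 was the library of its group with the most Cd207, Cd209a and Mgl2 and the least Clec9a, and AdTGFb1 DC 954 the one with the least Cd207, Cd209a and Mgl2 and the most Clec9a. In AdCL of experiment 3, DC 944 stood at the first extreme and DC 943 at the second.

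**Figure D4:**
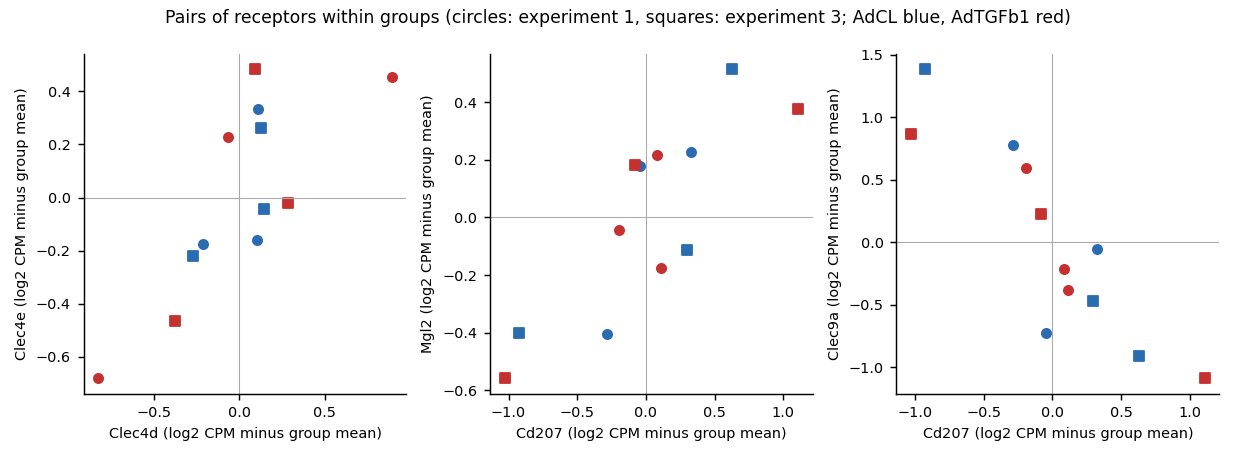
Log2 CPM minus the group mean for Clec4d and Clec4e, Cd207 and Mgl2, and Cd207 and Clec9a, with 1 point per library (circles for experiment 1, squares for experiment 3, blue for AdCL and red for AdTGFb1). The first 2 pairs rise together with r of 0.79 and 0.83, and the third falls with r of -0.88.

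For each receptor the 3 genes with the most similar profile over the 12 libraries were found among genes of at least 5 CPM. For Cd209a they were Cst3, Cd83 and Gpr132 (Pearson r of log2 CPM 0.97, 0.96 and 0.95), and for Cd207 they were Col27a1, Siglecg and Cd209c (0.99, 0.97 and 0.97). For Mrc1 they were Brca2, Asgr2 and Osm (0.93, 0.92 and 0.91), with Asgr2 itself a C-type lectin. For Clec4n they were Atp2c1, Tmem165 and Anxa4 (0.93, 0.93 and 0.90). For Mgl2 they were Rac2, Khdrbs1 and Cux1 (0.93, 0.88 and 0.87), and for Clec10a Med29, Dagla and Pcnxl4 (0.90, 0.88 and 0.85). Clec7a was closest to Idh3b, Plet1 and Rrp1b (0.90, 0.89 and 0.89). Clec4d was closest to Myo1d, Emc6 and Wbp4 (0.88, 0.85 and 0.85), and Clec4e to Bzw1, Rps2 and Edem1 (0.93, 0.91 and 0.91). Clec9a was closest to Abr, Ctdsp2 and Rxrb (0.92, 0.92 and 0.92). These profiles include the differences between vectors and experiments.

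Other C-type lectins were taken from a list of 46, of which 37 passed the low-count filter. Of the 37, 2 rose and 7 fell over both experiments, with a median log2 fold change of -0.57, against 6.78% of all genes higher and 10.4% lower. Cd209c, a relative of Cd209a, fell from 24.8 ± 10.1 to 2.57 ± 2.64 CPM (-3.59 ± 0.51, adjusted p = 8.38e-05, edgeR). It was lower in 6 of 6 AdTGFb1 libraries than in every AdCL library, as were 4.46% of all genes. Selp, the adhesion molecule P-selectin of platelets and endothelium, fell by 3.996 ± 0.70 (adjusted p = 0.000628). Clec4a3, a receptor of the DCIR group, rose from 32.9 ± 12.2 to 78.8 ± 14.0 CPM (1.32 ± 0.17, adjusted p = 2.55e-05), above every AdCL library in 6 of 6, as held for 1.86% of all genes. Klra2, a receptor of the Ly49 family with close copies, rose by 1.21 ± 0.20 (adjusted p = 0.000406), and missed the threshold when the experiment was left out of the model (0.0543). Olr1, a receptor for oxidised lipoprotein, and Cd69, an early activation antigen, differed between experiments. Olr1 was at 1.36 in experiment 1 and -0.66 in experiment 3, a difference of -2.02 ± 0.40 (adjusted p = 0.00358). Cd69 was at -0.41 and 1.00, a difference of 1.40 ± 0.33 (adjusted p = 0.0117).

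**Figure D5:**
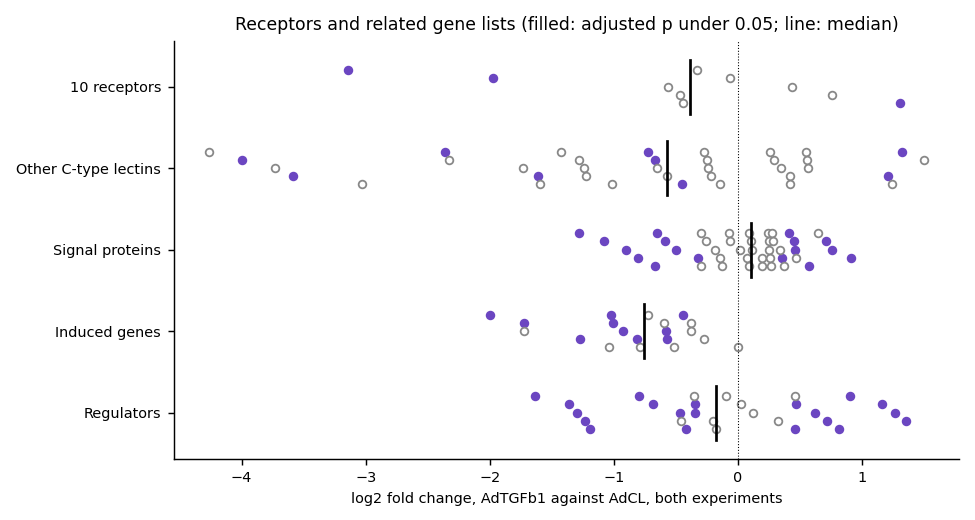
Log2 fold change of AdTGFb1 against AdCL over both experiments for the 10 receptors and the tested genes of 4 related lists, filled where the adjusted p was under 0.05, with a line at each median. The medians were -0.39 for the receptors, -0.57 for other C-type lectins, 0.11 for signal proteins, -0.76 for induced genes and -0.17 for regulators.

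Transcripts of proteins that carry the signal of Clec7a, Clec4n, Clec4d and Clec4e moved in both directions. Of 44 tested, 8 rose and 9 fell, with a median of 0.11, against the same 6.78% and 10.4% of all genes. Malt1, the protease of the Card9 complex, fell from 1692 ± 289 to 806 ± 180 CPM (-1.08 ± 0.11, adjusted p = 3.49e-06, edgeR), and lay below every AdCL library in 6 of 6. Map3k14, the kinase NIK of the alternative NF-κB pathway, fell by 1.28 ± 0.14, and Ikbkb, an IκB kinase, by 0.80 ± 0.12, both below every AdCL library in 6 of 6. Of all genes, 4.46% lay below in this way. Ptpn6, the phosphatase SHP-1 that restrains Syk signalling, rose by 0.91 ± 0.11 (adjusted p = 1.35e-05), with 4 of 6 AdTGFb1 libraries above every AdCL library. Fgr, a SRC-family kinase, differed between experiments (0.87 in experiment 1 and -0.38 in experiment 3, adjusted p = 0.00119 for the difference), as did Nfatc1, a calcium-dependent transcription factor (-0.11 and 0.62, adjusted p = 0.0374). The call of Nfatc1 was lost without any one of AdCL DC 7, 8, 9, 944 or 949 or AdTGFb1 DC 52, 54, 954 or 956 (adjusted p from 0.0711 to 0.115).

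Of 20 tested genes that ligands of these receptors are known to induce, 10 fell and 0 rose, with a median of -0.76, against 10.4% of all genes lower. Il12b, a subunit of interleukin 12, fell by 1.27 ± 0.21 (adjusted p = 0.000397, edgeR), Il1a, an alarm cytokine, by 1.01 ± 0.21 (adjusted p = 0.00219) and Il6 by 1.73 ± 0.27 (adjusted p = 0.000232). Nlrp3, the sensor of an inflammasome, fell by 1.6004 in experiment 1 (adjusted p = 1.1e-07) and was at -0.45 in experiment 3, which did not pass (adjusted p = 0.0642), a difference of 1.15 ± 0.20 (adjusted p = 0.00167). Egr1, an early response factor, was at -1.81 and 0.23, a difference of 2.04 ± 0.31 (adjusted p = 0.000349). Many other signals induce the same genes.

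Among 29 transcription factors and cytokine receptors known to control expression of the lectins, 9 rose and 11 fell, with a median of -0.17, against 6.78% and 10.4% of all genes. Zbtb46, a factor of conventional DCs, fell by 1.63 ± 0.17 (adjusted p = 4.57e-06, edgeR) and Ahr, the aryl hydrocarbon receptor that Langerhans cells also express, fell from 413 ± 130 to 175 ± 24.9 CPM (-1.19 ± 0.12, adjusted p = 3.92e-06). Cebpa, a myeloid factor, rose from 89.3 ± 21.96 to 217 ± 58.0 CPM (1.27 ± 0.12, adjusted p = 1.61e-06), and Irf8 rose by 1.16 ± 0.12. Cebpb, a factor known to act on Clec4e, rose over both experiments by 0.90 ± 0.18 (adjusted p = 0.00146), with 1.38 in experiment 1 and 0.43 in experiment 3 (adjusted p = 0.025 for the difference), while Clec4e itself was not called. The difference for Cebpb missed the threshold without AdCL DC 7 (0.0516), AdTGFb1 DC 52 (0.0843), AdCL DC 949 (0.0567), AdTGFb1 DC 954 (0.0553) or AdTGFb1 DC 956 (0.0557). Nfil3, a factor of the CD103 lineage, was at 0.59 and -0.34 (adjusted p = 0.00509 for the difference). As checks of the label, Itgam, which encodes CD11b, lay at 423 ± 83.1 CPM with AdCL and 363 ± 69.6 CPM with AdTGFb1. Itgax, which encodes CD11c, lay at 921 ± 124 and 1035 ± 132 CPM. The macrophage genes Fcgr1 and Mertk, checked beside them, rose with AdTGFb1. Fcgr1 went from 33.7 ± 18.3 to 101.8 ± 31.1 CPM (1.68 ± 0.18, adjusted p = 4.5e-06, edgeR). Mertk went from 46.3 ± 14.4 to 99.1 ± 16.9 CPM (1.14 ± 0.14, adjusted p = 2.59e-05). For both genes, 6 of 6 AdTGFb1 libraries lay above every AdCL library, as held for 1.86% of all genes.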

How the data were processed

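Whole-number read counts per gene symbol for 12 libraries were deposited by the authors as 1 table. Per the submitters' processing notes, the tools named are STAR 2.5.0c, HTSeq, DESeq2 and cutadapt 1.9.1, FastQC 0.11.4 and Trim Galore 0.4.1, with build mm9. Strand use and the annotation were not given in the sources used here. From the counts, edgeR 4.0.16 (R 4.3.3, limma 3.58.1) filtered low counts by its default rule for the 4 groups, scaled by TMM and fitted the quasi-likelihood model. The effect over both experiments used the experiment as a term; effects within experiments and their difference came from a model of 4 groups. SE is the log2 fold change over the square root of F. DESeq2 1.42.0 was an alternative, with other scaling, no filter, terms for sex (called from Xist and Ddx3y) or structural markers, and each library left out. The scripts were tested on simulated data. At a log2 change of 1, 46.2% of changed genes were recovered over both experiments and 6.67% for the difference, with 7.14% false among the calls of each. At a log2 change of 2, 74.0% and 54.4% were recovered, with 2.74% and 3.64% false. A gene not called for the difference may therefore still differ. Transcript lengths, shared 50-base stretches and neighbours came from GENCODE M21 on GRCm38, a build other than that of the counts, so no gene coordinates were taken from it. A total of 3 counts stands for 0.181 to 0.31 CPM in these libraries, a limit for counting error only. Beside the 10 members, the text names up to 4 called genes with the smallest p per related list, up to 2 for the difference between experiments, and the 3 most similar genes per member. The members and lists were chosen with earlier results of these data known.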

Additional observations from a re-analysis of the deposited data

Results flagged for a closer look

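The effect of the vector differed between the experiments, by the test of the difference itself (experiment 3 minus experiment 1, log2 scale), for 3 receptors: Cd207 (2.77), Clec4n (-1.51) and Clec7a (-0.83). Among the related genes named, the same held for Olr1 (-2.02) and Cd69 (1.40) of the other C-type lectins, Fgr (-1.25) and Nfatc1 (0.73) of the signal proteins, Egr1 (2.04) and Nlrp3 (1.15) of the induced genes, and Nfil3 (-0.94) and Cebpb (-0.96) of the regulators. Of these, Clec4n, Clec7a, Olr1, Cd69, Nfatc1, Nfil3 and Cebpb missed the threshold once sex was in the model. Groups of 3 libraries were not tested for single libraries that stand apart.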

How the results depend on the processing

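The calls of Cd209a and Cd207 held under every alternative run over both experiments and within each. No paired analysis was possible because the library numbers in the titles are all different. With a term for sex, the genes called numbered 1501 over both experiments (582 higher, 919 lower; 2271 in the reported fit), 1296 in experiment 1 (3264) and 157 for the difference between experiments (796), and the members called numbered 5 over both and 1 for the difference. With the term for structural markers 1219 genes were called over both. DESeq2 gave 1286 genes for the difference among 13221 tested, and no low-count filter 1222 among 17291. With no filter the members called numbered 7 over both, 6 in experiment 3, 5 for the difference and 5 between the AdCL groups. Counts of all genes without the filter are given here only for the difference, so the other member counts stand without that share. The median transcript length kept 6 of 10 ranks. Leaving out 1 library gave 1693 to 2488 genes and 2 to 4 members over both, 2332 to 3342 and 4 to 5 in experiment 1, 498 to 871 and 2 to 6 in experiment 3, 530 to 956 and 2 to 4 for the difference, and 660 to 1247 and 1 to 2 between the AdCL groups; the lowest counts came without AdTGFb1 DC 956 (experiment 3; 521 without AdCL DC 944), AdTGFb1 DC 52 (difference) and AdCL DC 949. Signs turned only for effects that were not called. Clec10a in experiment 1 was 0.00338 with no filter, 0.16 with the sex term and 0.0139 with experiment 1 alone, and with the sex term the difference was -0.36 for Cd209a, 0.86 for Clec4d and 0.33 for Clec4e. Over the libraries left out, the effect ran from -0.18 to 0.0496 for Clec7a over both, from -0.23 to 0.0416 for Mgl2, -0.15 to 0.48 for Clec10a and -0.46 to 0.0435 for Clec4e in experiment 1, from -0.11 to 0.27 for Mrc1 and -0.20 to 0.14 for Clec4n in experiment 3, from -0.20 to 0.69 for Cd209a and -0.46 to 0.43 for Clec4d in the difference, and from -0.55 to 1.02 for Clec9a between the AdCL groups. The cause was not tested. Depth limits Clec9a most, with 32 reads in its lowest library.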
